A study of Mus musculus with 18 samples.

Results

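Acetate was given to T helper 17 (Th17) cells that lack the glucose transporter GLUT3, and their messenger RNA was compared with that of untreated cells of the same genotype. The comparison rests on 6 of the 18 libraries of the study, 3 GLUT3KO cultures with acetate and 3 without, chosen by their labels, and on the 14229 of 45703 genes that reached at least 1 TPM (transcripts per 1000000, a level corrected for gene length) in at least 3 of the 18 libraries. The study also holds wild-type (WT) cells and cells without ATP citrate lyase (ACLYKO), each with and without acetate in 3 libraries. All cultures began as naive T cells that received antibodies to CD3 and CD28 and polarizing cytokines. After 48 hours of polarization acetate was added or not for 24 more hours, and all cells then got PMA, ionomycin, brefeldin A and monensin for 5 hours. The acetate dose is 20 mM in the protocols and 10 mM in the text on the series. GLUT3KO stands for the genotype Slc2a3-fl/fl Cd4-cre on a C57BL/6 background, except that GLUT3KO + acetate replicate 3 is labelled C57BL/7. WT cells are labelled wild type and C57BL/6. ACLYKO stands for Acly-fl/fl Cd4-cre, with backgrounds labelled from C57BL/8 to C57BL/12 in 5 libraries and C57BL/6 in acetate replicate 3. Cd4-cre acts in all T cells that have passed the CD4+ stage in the thymus, so the loss precedes the culture. The labels give neither the mouse behind each library nor its sex or age. The p-values therefore rest on library-to-library spread alone, which may be technical.

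Glucose enters T cells through facilitative transporters, mainly GLUT1 and GLUT3, and feeds glycolysis and the mitochondrial production of citrate. ATP citrate lyase splits citrate in the cytosol to acetyl-CoA, the donor of acetyl groups for lipids and histones. Acetate is an alternative source, because acetyl-CoA synthetases (ACSS1 in mitochondria, ACSS2 in the cytosol and nucleus) turn it into acetyl-CoA directly. Th17 cells make IL-17A and IL-17F, and PMA with ionomycin drives their cytokine genes through AP-1, NF-κB and NFAT.

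The deleted gene itself, Slc2a3, stood at 8.62, 9.69 and 13.6 TPM in GLUT3KO cells with acetate, against 4.005, 6.31 and 8.20 TPM in untreated GLUT3KO cells. The levels with acetate lay above those without, and the log2 change was 0.72 ± 0.28 (SE, adjusted p = 0.105), which missed the threshold of 0.05 but passed it under 7 alternatives (lowest adjusted p = 0.00396), among them median-ratio scaling and the replicate block. WT cells had 30.9, 32.6 and 29.6 TPM with acetate and 14.4, 19.8 and 19.0 TPM without, above the GLUT3KO libraries of the same treatment. The exons that the allele loses are not known here, and reads from the exons that remain still count. A further check concerned cell identity. The 8 T cell markers (such as Cd3e, Cd4 and Lck) summed to 4470.4 to 4543 TPM with acetate and 5127 to 5599 TPM without, and the 6 Th17 markers to 2242 to 2608 TPM with acetate and 321 to 399 TPM without. Markers of other cells were not all silent. Those of gamma-delta T cells, 5 genes led by the delta chain gene Trdc, summed to 76.7 to 148 TPM with acetate and 48.3 to 133 TPM without. The 10 macrophage and monocyte markers summed to 11.1 to 18.7 TPM with acetate and 4.55 to 9.33 TPM without, mostly from Ly6c2, which rose with acetate (log2 change 1.02, adjusted p = 0.0180), while the complement genes C1qa, C1qb and C1qc were at 0 in all 6 libraries. The 7 neutrophil markers reached at most 3.24 TPM with acetate and 1.21 TPM without in sum, and the 6 erythroid markers 11.8 and 2.74 TPM. The 5 epithelial markers summed to 2.85 to 3.39 TPM with acetate and 3.36 to 5.10 TPM without. Their part in the results was not tested.

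The 6 libraries held 18697197 to 29221484 reads, and 1 read in a gene with 2000 bases of exons equals 0.0414 to 0.0719 TPM. Over all 18 libraries, the main axis of variation within groups held 63.6% of that variation, and its loadings went with gene length (Spearman correlation of 0.351 over genes) and GC content (-0.429). The acetate libraries scored 2.22, -1.99 and -0.23 on it, and the untreated libraries scored 31.9, -35.96 and 4.10, so that on this axis the untreated libraries lay farther apart than the acetate libraries. The farthest of the 18 was untreated ACLYKO replicate 1, at 90.2. The acetate changes and the loadings correlated by -0.57 across genes, a description without a test. With the axis score as a covariate 6511 genes passed, 2761 higher and 3750 lower. The score was built from each library's deviation from its group mean. It could therefore not alter any log2 change, only the estimate of the spread. A call kept or gained with this covariate is thus no check on the acetate change.

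Acetate changed 1813 genes (12.7% of 14229) at an adjusted p under 0.05 in limma, 691 higher (4.86%) and 1122 lower (7.89%). The counts of list members given below stand against these shares. The higher group was led by cytokine genes, and the lower group by trypsinogen genes of the T cell receptor locus, the plastin gene Pls1 and the lipid kinase gene Dgkk. The median log2 change of all tested genes was -0.07, and among the called genes 273 were at least 2-fold higher and 268 at least 2-fold lower. Genes called higher had a median exon length of 2628 bases and a GC content of 51.4%, genes called lower had 4434 bases and 48.0%, and all tested genes had 2835 bases and 49.9%. The 3 and 3 libraries did not overlap in 683 of the 691 and 1117 of the 1122 genes, and in 6351 of all tested genes. The split turned with the scaling: 57.5% of the calls were higher after median-ratio scaling (1041 higher, 771 lower), 47.1% after quantile normalization, 56.6% with voom on recovered reads and 51.6% after correction for GC content and length, against 38.1% as deposited. None of the 1813 genes changed sign under these 4 settings except 1 gene under the GC and length correction.

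The number of calls depended on single libraries. It was 1130, 960 and 1006 without acetate replicates 1, 2 and 3, and 1011, 2342 and 977 without untreated replicates 1, 2 and 3. With only replicate 2 left as the untreated sample, which is then assumed to vary like the other groups, 286 genes passed (149 higher, 137 lower). All 6 groups share 1 estimate of the spread, so libraries of other genotypes also bear on the count. Without untreated ACLYKO replicate 1, an alternative chosen after seeing the data, 4152 genes passed (1623 higher, 2529 lower), all 1813 among them. Leaving it out alters only the estimate of the spread, so a call kept or gained there is no check on the acetate change in GLUT3KO cells. Of the 145 called genes among the 200 named by rule, 51 passed in all 18 alternatives and 92 lost their call with untreated replicate 2 alone. A called gene whose values are given with no remark on its alternatives lost its call, if at all, only with untreated replicate 2 alone. That holds for the acetate change in GLUT3KO cells, not for its differences from WT or ACLYKO cells. Fewer cells of a type and less RNA per cell cannot be told apart in such bulk samples.

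**Figure D1:**
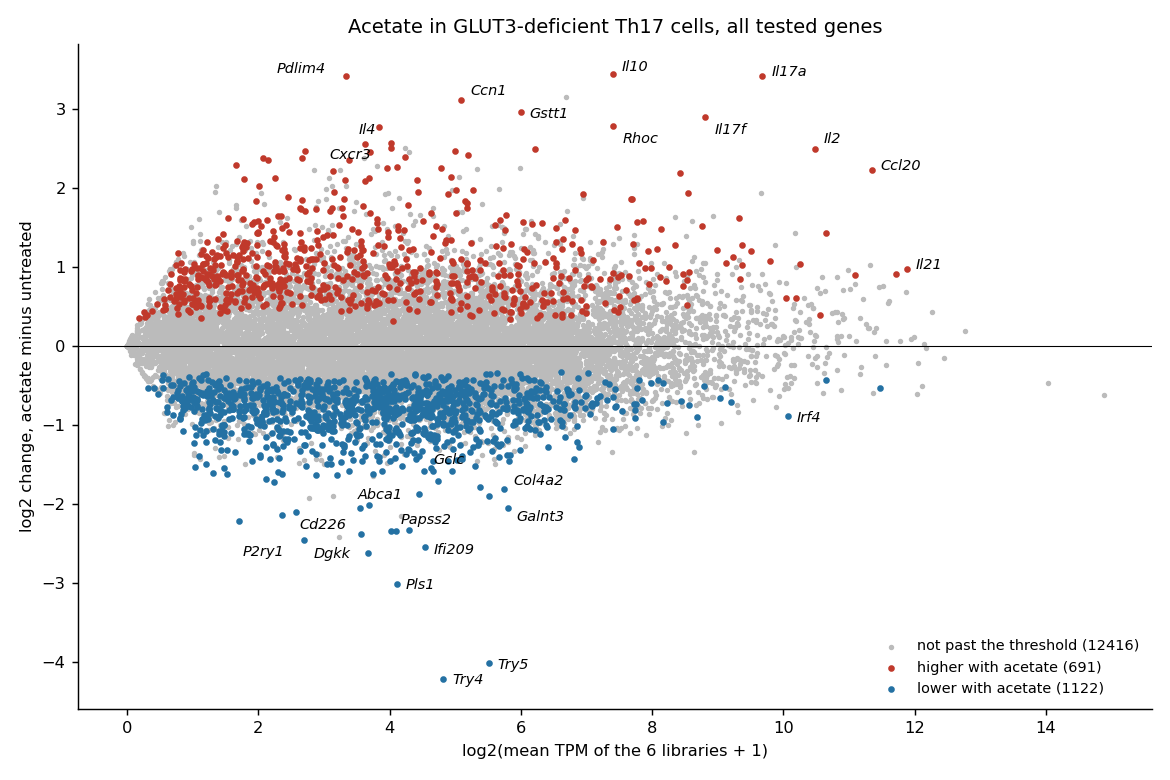
Log2 change with acetate (acetate minus untreated, from log2(TPM + 1)) of each of the 14229 tested genes in GLUT3KO Th17 cells, against the log2 of its mean TPM over the 6 libraries plus 1. Red points (691) were higher and blue points (1122) lower at an adjusted p under 0.05; Il10, Il17a and Pdlim4 lie at the top, above a log2 change of 3, and Try4 and Try5 at the bottom, near -4.

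The gene of the name-giving cytokine of these cells, Il17a, had 1456, 1393 and 1616 TPM in GLUT3KO cells with acetate, against 91.0, 192 and 152 TPM in untreated GLUT3KO cells. The acetate libraries lay close together and far above all untreated libraries. Its neighbour on chromosome 1, Il17f, whose product pairs with IL-17A, had 846, 683 and 836 TPM with acetate and 106, 104 and 105 TPM without. The untreated libraries were almost equal, and the groups lay far apart. The log2 changes were 3.41 ± 0.39 (SE, adjusted p = 6.75e-05) for Il17a and 2.89 ± 0.22 (SE, adjusted p = 2.49e-06) for Il17f. Every alternative that tested them called Il17a and Il17f. The 5′ flanks of both are shown with those of Il2 and Il4, because these genes stand among the largest rises and answer to NFAT and AP-1 after PMA and ionomycin. The sequences are the 250 bases before the RefSeq start, from the RefSeq table on GRCm38.p6, at chr1:20730655-20730904 (plus strand), chr1:20784271-20784520 (minus strand), chr3:37125955-37126204 (minus strand) and chr11:53618666-53618915 (minus strand, 1 of 2 windows of Il4). Capitals mark the AP-1 letters TGANTCA, or the NFAT core TGGAAA on either strand (TTTCCA on the other). GGAAA after a letter other than T, as in the Il2 and Il4 windows, was neither marked nor counted.
Il17a: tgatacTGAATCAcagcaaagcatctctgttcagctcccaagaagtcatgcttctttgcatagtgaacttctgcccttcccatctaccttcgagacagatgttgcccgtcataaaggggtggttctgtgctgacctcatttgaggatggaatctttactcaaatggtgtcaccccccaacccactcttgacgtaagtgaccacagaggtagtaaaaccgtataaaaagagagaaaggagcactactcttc
Il17f: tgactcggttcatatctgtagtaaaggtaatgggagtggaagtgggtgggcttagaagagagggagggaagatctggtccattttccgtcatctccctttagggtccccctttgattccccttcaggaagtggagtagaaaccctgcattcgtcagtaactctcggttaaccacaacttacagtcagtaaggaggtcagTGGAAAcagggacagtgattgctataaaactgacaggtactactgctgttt
Il2: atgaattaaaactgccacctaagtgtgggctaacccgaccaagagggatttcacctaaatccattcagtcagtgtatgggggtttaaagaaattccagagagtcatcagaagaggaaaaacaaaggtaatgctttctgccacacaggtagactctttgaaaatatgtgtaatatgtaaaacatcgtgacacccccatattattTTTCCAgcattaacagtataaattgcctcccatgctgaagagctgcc
Il4: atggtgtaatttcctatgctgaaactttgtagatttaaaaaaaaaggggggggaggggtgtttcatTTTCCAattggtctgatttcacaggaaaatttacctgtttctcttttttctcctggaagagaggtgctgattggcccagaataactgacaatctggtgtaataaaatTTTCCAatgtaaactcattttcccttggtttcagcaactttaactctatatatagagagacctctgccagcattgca
The Il17a window held 1 AP-1 match, those of Il17f and Il2 1 NFAT core each, and that of Il4 2, while the other Il4 window held 0 of either. An AP-1 match was found in 6.80% of 676 windows of genes called higher, in 4.69% of those called lower, in 4.42% of 11855 windows of tested genes and in 6.75% of all 32851 windows of this length. The NFAT core was found in 19.8% of windows called higher, in 15.2% of those called lower, in 15.2% of those tested and in 18.6% of all. These shares are descriptions without a test. A match describes letters and is not evidence of binding.

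Other Th17 genes moved less evenly. Of 27 tested Th17 lineage genes, 9 were higher and 1 was lower, with a median log2 change of 0.48 against -0.07 over all tested genes. Il21, an autocrine growth factor of Th17 and follicular helper cells and the most abundant of these mRNAs, had 5074, 5361 and 4511 TPM in GLUT3KO cells with acetate, against 2608, 2294 and 2741 TPM in untreated GLUT3KO cells. Its groups were apart, but its log2 change of 0.97 ± 0.21 (SE, adjusted p = 0.00772) was far smaller than that of Il17a. Il22, which acts on epithelia, had 34.9, 57.0 and 52.2 TPM with acetate and 5.97, 17.4 and 9.24 TPM without, a log2 change of 2.13 ± 0.35 (SE, adjusted p = 0.00115), but it has a near copy in the genome, Iltifb, that may share its reads. Il24, of the IL-10 family, had 56.6, 51.3 and 51.1 TPM with acetate and 5.71, 11.1 and 10.4 TPM without and changed by 2.47 ± 0.26 (SE, adjusted p = 3.60e-05). Ccl20, the ligand of the Th17 chemokine receptor CCR6, had 3739.6, 4676 and 4392 TPM with acetate and 849, 1186 and 756 TPM without, and its log2 change was 2.22 ± 0.38 (SE, adjusted p = 0.00165). Ltb4r1, a leukotriene receptor, changed by 2.09 ± 0.23 (SE, adjusted p = 4.24e-05), and Il1r1, the receptor of the Th17 cytokine IL-1, by 0.79 ± 0.15 (SE, adjusted p = 0.00257). Ccr6 itself rose by 0.62 (adjusted p = 0.0354). The member that fell was Irf4, a transcription factor that T cell receptor signals induce, at 795, 742 and 708 TPM in GLUT3KO cells with acetate, against 1512, 1208 and 1463 TPM in untreated GLUT3KO cells. The call ended for Ccr6 without acetate replicates 1, 2 or 3 or untreated replicates 2 or 3, without a filter on low values and under the replicate block. The genes that passed in every alternative that tested them were Il24 and Ltb4r1. Il23r, the receptor for the Th17 survival cytokine IL-23, did not pass (log2 change -0.13, adjusted p = 0.594).

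**Figure D2:**
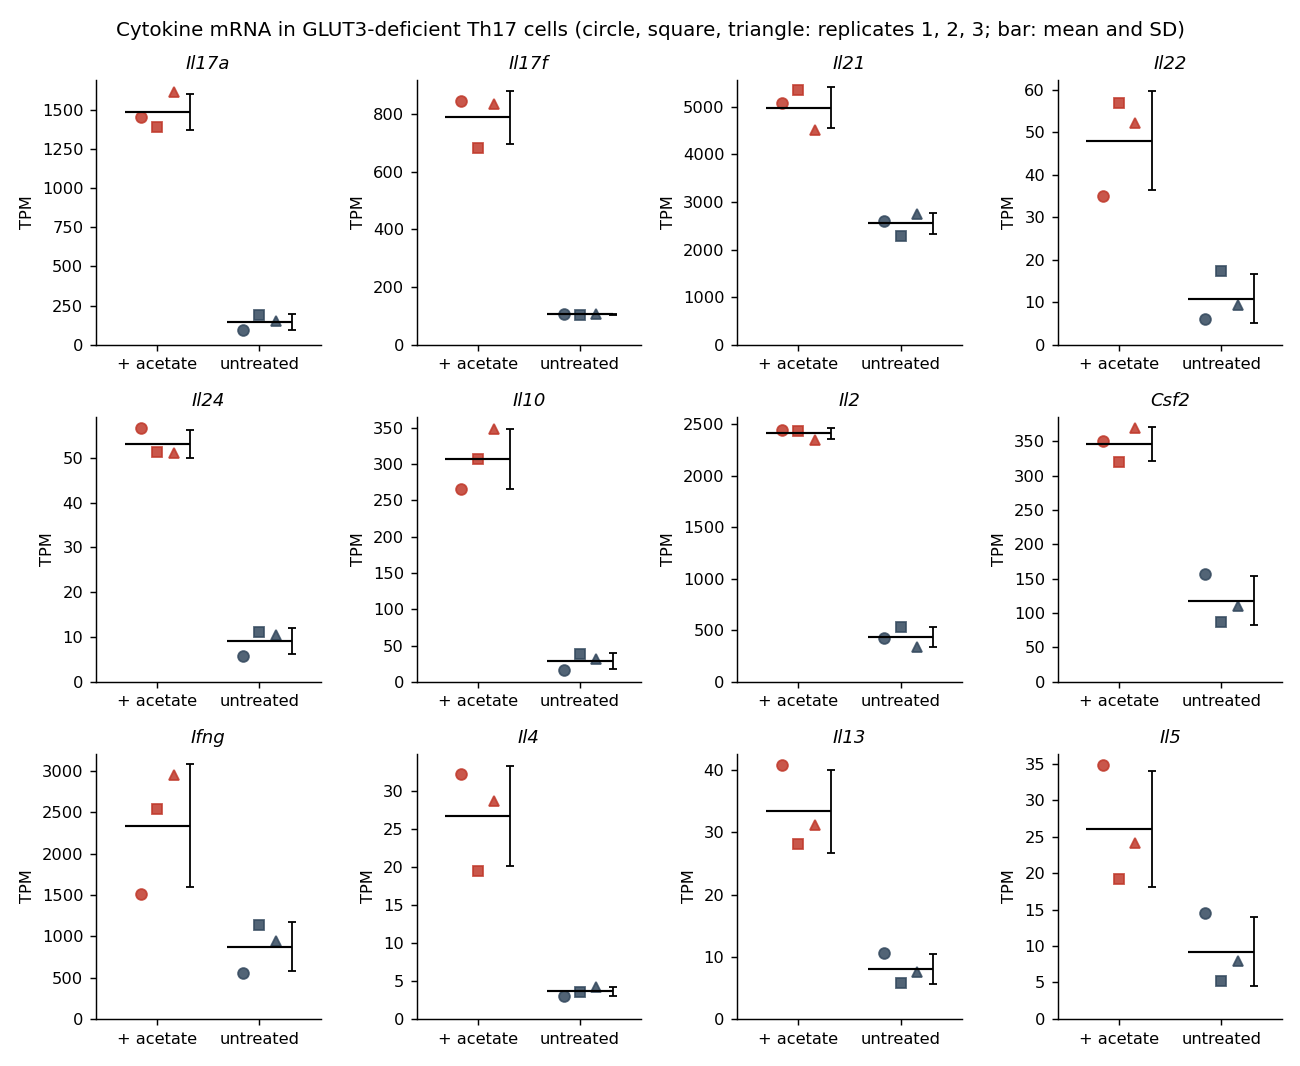
TPM of 12 cytokine genes in the GLUT3KO libraries, with acetate on the left (red) and untreated on the right (dark), circles, squares and triangles for replicates 1, 2 and 3, and bars for the mean and SD; each axis starts at 0. In all 12 panels the 3 acetate libraries lie above the 3 untreated ones, with the largest log2 change for Il10 and the smallest for Il21.

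The anti-inflammatory cytokine gene Il10 had the largest rise of all tested genes on the log2 scale. It stood at 266, 307 and 349 TPM in GLUT3KO cells with acetate, against 16.8, 38.3 and 31.5 TPM in untreated GLUT3KO cells. No library overlapped the other group, and the log2 change was 3.43 ± 0.25 (SE, adjusted p = 1.42e-06). Il2, the T cell growth factor, had 2444, 2436 and 2348 TPM in GLUT3KO cells with acetate, against 425, 534 and 342 TPM in untreated GLUT3KO cells. All untreated values lay far under the acetate values, and the log2 change was 2.49 ± 0.32 (SE, adjusted p = 0.000161). In all, 24 of 38 tested cytokine and chemokine genes were higher and 1 was lower, with a median log2 change of 1.26, and 10 were higher and 0 lower when untreated replicate 2 stood alone. The one that fell, Il16, a chemoattractant stored as a precursor, had 27.3 ± 4.16 TPM with acetate and 53.1 ± 6.27 TPM without (SD, n = 3 each). Called in every alternative that tested them were Il10 and Il2.

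Cytokines of other helper subsets were among those that rose. The Th2 genes lie together on chromosome 11. Il4, which directs the Th2 fate, had 32.3, 19.5 and 28.7 TPM with acetate and 3.07, 3.60 and 4.26 TPM without. Il13, which acts on airway and gut epithelia, had 40.8, 28.1 and 31.2 TPM with acetate and 10.7, 5.85 and 7.51 TPM without. Il5, the eosinophil growth factor gene, had 34.9, 19.2 and 24.1 TPM with acetate and 14.5, 5.24 and 7.96 TPM without. The groups were apart in all of them, although acetate replicate 1 was the highest each time, and untreated replicate 1 was the highest for Il13 and Il5. The log2 changes were 2.56 ± 0.32 (SE, adjusted p = 0.000158) for Il4, 1.95 ± 0.28 (SE, adjusted p = 0.000479) for Il13 and 1.46 ± 0.27 (SE, adjusted p = 0.00309) for Il5. Il9, the Th9 cytokine, stayed low, at 4.09, 3.36 and 4.85 TPM with acetate and 0.546, 0.979 and 0.525 TPM without. Gata3, the master factor of Th2 cells, went the other way, with 6.55 ± 1.92 TPM with acetate and 12.0 ± 4.06 TPM without (adjusted p = 0.0343). Its groups overlapped, since acetate replicate 1 lay above untreated replicate 2. Significance was lost for Gata3 without acetate replicates 2 or 3 or untreated replicates 1 or 3, after median-ratio scaling, after quantile normalization, when only the groups compared were fitted, with voom and after the GC and length correction. Every alternative that tested them called Il4, Il13 and Il5. Of 11 tested Th2 and Th9 genes 6 were higher and 1 was lower.

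Csf2, which encodes the macrophage growth factor GM-CSF, had 350.5, 320.1 and 369 TPM in GLUT3KO cells with acetate, against 157, 87.2 and 110.03 TPM in untreated GLUT3KO cells, and its log2 change was 1.58 ± 0.28 (SE, adjusted p = 0.00200). The Th1 cytokine gene Ifng had 1515, 2546 and 2956 TPM with acetate and 554, 1138 and 938 TPM without. Tbx21, which encodes its regulator T-bet, had 32.8, 50.6 and 52.7 TPM with acetate and 14.3, 23.3 and 24.9 TPM without. In both genes replicate 1 was the lowest of its group with and without acetate, and the groups did not overlap. The log2 changes were 1.42 ± 0.37 (SE, adjusted p = 0.0197) for Ifng and 1.09 ± 0.25 (SE, adjusted p = 0.0101) for Tbx21. Cxcr3, a Th1 chemokine receptor gene, had 29.6, 24.4 and 24.8 TPM with acetate and 2.35, 5.94 and 3.75 TPM without, a log2 change of 2.5 ± 0.35 (SE, adjusted p = 0.000317). Of 22 tested Th1 and cytotoxic genes 4 were higher and 0 lower, with a median of 0.65. Under the replicate block the counts were 12 higher and 1 lower, and without ACLYKO replicate 1 10 higher and 2 lower. The fourth, Gzmc, a granzyme gene, had 161, 226 and 397 TPM with acetate and 55.4, 79.8 and 139 TPM without. The threshold was missed for Ifng and Tbx21 without acetate replicates 2 or 3 or untreated replicate 1, and for Gzmc without acetate replicate 3 or untreated replicate 1 and when only the groups compared were fitted. The gene that passed in every alternative was Csf2. Marker genes of NK cells summed to 5.70 to 12.1 TPM with acetate and 1.68 to 4.21 TPM without for 5 genes, of which only Klre1 passed 1 TPM in any library, and those of CD8 T cells to 13.6 to 19.9 TPM with acetate and 10.1 to 12.1 TPM without for 2 genes. Their part in the result was not tested.

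Among 13 tested ligands of the tumour necrosis factor family, 7 were higher and 0 lower. Tnfsf11, which encodes the osteoclast factor RANKL, had 766, 596 and 565 TPM in GLUT3KO cells with acetate, against 247, 228 and 195 TPM in untreated GLUT3KO cells, with no overlap and a log2 change of 1.51 ± 0.17 (SE, adjusted p = 6.75e-05). Tnf had 681, 896 and 905 TPM with acetate and 378, 348 and 399 TPM without. Its neighbour Lta, which encodes lymphotoxin alpha, had 335, 406 and 389 TPM with acetate and 145, 173 and 163 TPM without. Tnfsf8, Tnfsf9, Cd40lg and Cd70 rose by 1.02, 0.86, 0.71 and 1.44 log2 units. Il3, a growth factor for blood cell precursors, rose by 1.85 ± 0.38 (SE, adjusted p = 0.00523), and Ccl9, a chemokine gene, had 28.8, 69.5 and 85.04 TPM with acetate and 5.50, 14.3 and 10.9 TPM without, with acetate replicate 1 and untreated replicate 1 the lowest of their groups. Inhba, the activin A subunit gene, had 746, 472 and 449 TPM with acetate and 181, 72.2 and 126 TPM without. The change of Inhba was 2.18 ± 0.34 (SE, adjusted p = 0.000793); it was named after its values were seen, as were Lif (1.29) and Osm (1.48), both of the IL-6 family. No call remained for Tnfsf8 without acetate replicate 1, and for Cd40lg without acetate replicate 2. The call ended for Cd70 and Osm without acetate replicates 1, 2 or 3 or untreated replicates 1 or 3. Called in every alternative that tested them were Tnfsf11, Inhba and Lif.

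Chemokine receptors and integrins had 9 of 23 tested genes higher and 0 lower. Ccr1, a receptor of inflammatory chemokines, had 16.4, 14.01 and 12.7 TPM with acetate and 2.36, 4.10 and 3.40 TPM without, a change of 1.86 ± 0.15 (SE, adjusted p = 3.73e-06), with no overlap. Ccr3, Cxcr5 and Itga4 rose by 0.87, 1.27 and 0.59 log2 units. Of 17 naive and memory T cell genes 3 were higher and 1 lower (6 higher and 2 lower without ACLYKO replicate 1). The receptor gene of the survival cytokine IL-7, Il7r, had 324, 309 and 256 TPM with acetate and 113, 117 and 133 TPM without, and rose by 1.28 ± 0.14 (SE, adjusted p = 4.98e-05). Klf2, a factor of resting T cells, was low throughout, at 0.0456, 0.357 and 0.183 TPM with acetate and 0.713, 2.11 and 1.11 TPM without. Every alternative that tested them called Ccr1, Ccr3, Cxcr5, Il7r and Klf2.

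Genes that carry and dampen T cell signals went both ways. Of 20 tested genes of the T cell receptor and costimulation 0 were higher and 3 were lower (2 higher and 6 lower without ACLYKO replicate 1). The costimulatory receptor gene Cd226 had 2.35, 3.18 and 2.80 TPM in GLUT3KO cells with acetate, against 22.1, 17.0 and 17.2 TPM in untreated GLUT3KO cells. The groups were widely apart, at a log2 change of -2.38 ± 0.17 (SE, adjusted p = 1.27e-06). Cd3e, a chain of the T cell receptor complex, had 135, 158 and 148 TPM with acetate and 283, 255 and 293 TPM without. Its log2 change was -0.91 ± 0.16 (SE, adjusted p = 0.00237), and that of Cd28, another costimulatory receptor gene, was -0.43 ± 0.13 (SE, adjusted p = 0.0435). Of 21 tested coinhibitory and follicular helper genes 5 were higher, among them Pdcd1lg2, the gene of the PD-1 ligand PD-L2, with 206, 139.9 and 147 TPM with acetate and 74.8, 55.5 and 47.7 TPM without, and Bhlhe40, a cytokine regulator, with a change of 0.84 ± 0.15 (SE, adjusted p = 0.00251). The thymocyte factor gene Tox was the 1 that fell, at 2.58, 3.25 and 3.40 TPM with acetate and 12.1, 7.34 and 9.46 TPM without. Of 20 regulatory T cell genes 5 were higher, led by Il10 and by Lrrc32, which encodes the TGF-beta carrier GARP and had 9.58, 10.9 and 9.08 TPM with acetate and 2.83, 3.94 and 2.27 TPM without. Foxp3, the factor that defines regulatory T cells, was at 0.716, 1.43 and 1.80 TPM with acetate and 1.37, 1.18 and 1.43 TPM without and did not pass (adjusted p = 0.927). Significance was lost for Cd28 without any 1 of the 6 libraries, after median-ratio scaling, under the replicate block, with voom and after the GC and length correction. The genes that passed in every alternative that tested them were Cd226, Pdcd1lg2 and Lrrc32.

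Of 29 activation factor genes 6 were higher and 3 were lower (12 higher and 6 lower without ACLYKO replicate 1). Nr4a1, an orphan receptor gene that T cell receptor signals induce, had 21.5, 29.9 and 23.1 TPM with acetate and 8.33, 8.58 and 10.1 TPM without. Its relative Nr4a3 had 31.4, 46.5 and 42.0 TPM with acetate and 13.5, 15.3 and 17.7 TPM without. Both groups were apart in each of them. The log2 changes were 1.36 ± 0.15 (SE, adjusted p = 5.82e-05) for Nr4a1 and 1.3 ± 0.16 (SE, adjusted p = 0.000129) for Nr4a3. Fosl2, an AP-1 subunit that restrains Th17 genes, had 108, 111 and 97.8 TPM with acetate and 31.4, 39.5 and 36.0 TPM without, a change of 1.55 ± 0.24 (SE, adjusted p = 0.000899). Ier3, an immediate early gene, changed by 1.92 ± 0.35 (SE, adjusted p = 0.00257). The NFAT genes Nfatc1 and Nfatc2 fell by 0.81 and 0.59 on the log2 scale. The threshold was missed for Nfatc1 without acetate replicates 1, 2 or 3 or untreated replicates 1 or 3, without a filter on low values and under the replicate block, and for Nfatc2 without acetate replicates 1, 2 or 3 or untreated replicates 1 or 3, without a filter on low values, after median-ratio scaling, after quantile normalization, under the replicate block, with voom and after the GC and length correction. Called in every alternative that tested them were Nr4a1 and Nr4a3.

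Genes of the TGF-beta pathway, a signal that Th17 polarization needs, had 2 of 17 higher and 5 lower. Tgfbr3, the coreceptor betaglycan, had 9.34, 10.51 and 9.16 TPM with acetate and 17.8, 17.99 and 19.0 TPM without. Pmepa1, a target that dampens the pathway, had 18.7, 21.98 and 20.51 TPM with acetate and 42.6, 34.8 and 41.2 TPM without. The changes were -0.86 ± 0.16 (SE, adjusted p = 0.00333) for Tgfbr3 and -0.92 ± 0.17 (SE, adjusted p = 0.00287) for Pmepa1. The signal carrier gene Smad3 fell by 0.74 log2 units, and the inhibitor gene Smad7 rose by 0.89. No call remained for Smad3 without acetate replicates 1, 2 or 3 or untreated replicates 1 or 3, after median-ratio scaling, after quantile normalization, with voom and after the GC and length correction, and for Smad7 without acetate replicates 1 or 2 or untreated replicate 1.

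Col4a1 and Col4a2, neighbours on chromosome 8, encode chains of type IV collagen of basement membranes. Col4a1 had 14.3, 17.6 and 21.9 TPM with acetate and 55.9, 57.3 and 100.3 TPM without. Col4a2 had 18.3, 22.02 and 26.4 TPM with acetate and 79.7, 55.1 and 115 TPM without. Acetate and untreated libraries did not overlap, and untreated replicate 3 was the highest. The changes were -1.89 ± 0.21 (SE, adjusted p = 5.00e-05) for Col4a1 and -1.81 ± 0.22 (SE, adjusted p = 0.000124) for Col4a2. Of 14 collagen and matrix genes 5 were higher and 4 lower. Among those that rose, Lama5, a laminin chain gene, averaged 3.74 ± 0.412 TPM with acetate and 1.07 ± 0.227 TPM without (SD, n = 3 each). Lgals3, which encodes the lectin galectin-3, averaged 1007 ± 68.3 TPM with acetate and 441 ± 52.1 TPM without. Every alternative that tested them called Col4a1, Col4a2 and Lama5. The 4 endothelial markers summed to 15.4 to 21.2 TPM with acetate and 13.4 to 18.5 TPM without, nearly all from Pecam1, while Cdh5 and Tek were at 0 in all acetate libraries and reached at most 0.146 TPM in untreated ones. The 6 fibroblast markers summed to 18.4 to 23.4 TPM with acetate and 13.4 to 18.2 TPM without, mostly from Lum, while Col1a1 and Col1a2 stayed at or under 0.106 TPM in all 6 libraries. The fibroblast marker Dcn was called higher with acetate (log2 change 0.55, adjusted p = 0.0176). That call did not hold in every alternative, and under the replicate block 0 of the fibroblast markers passed. The part of such cells in the collagen result was not tested.

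**Figure D3:**
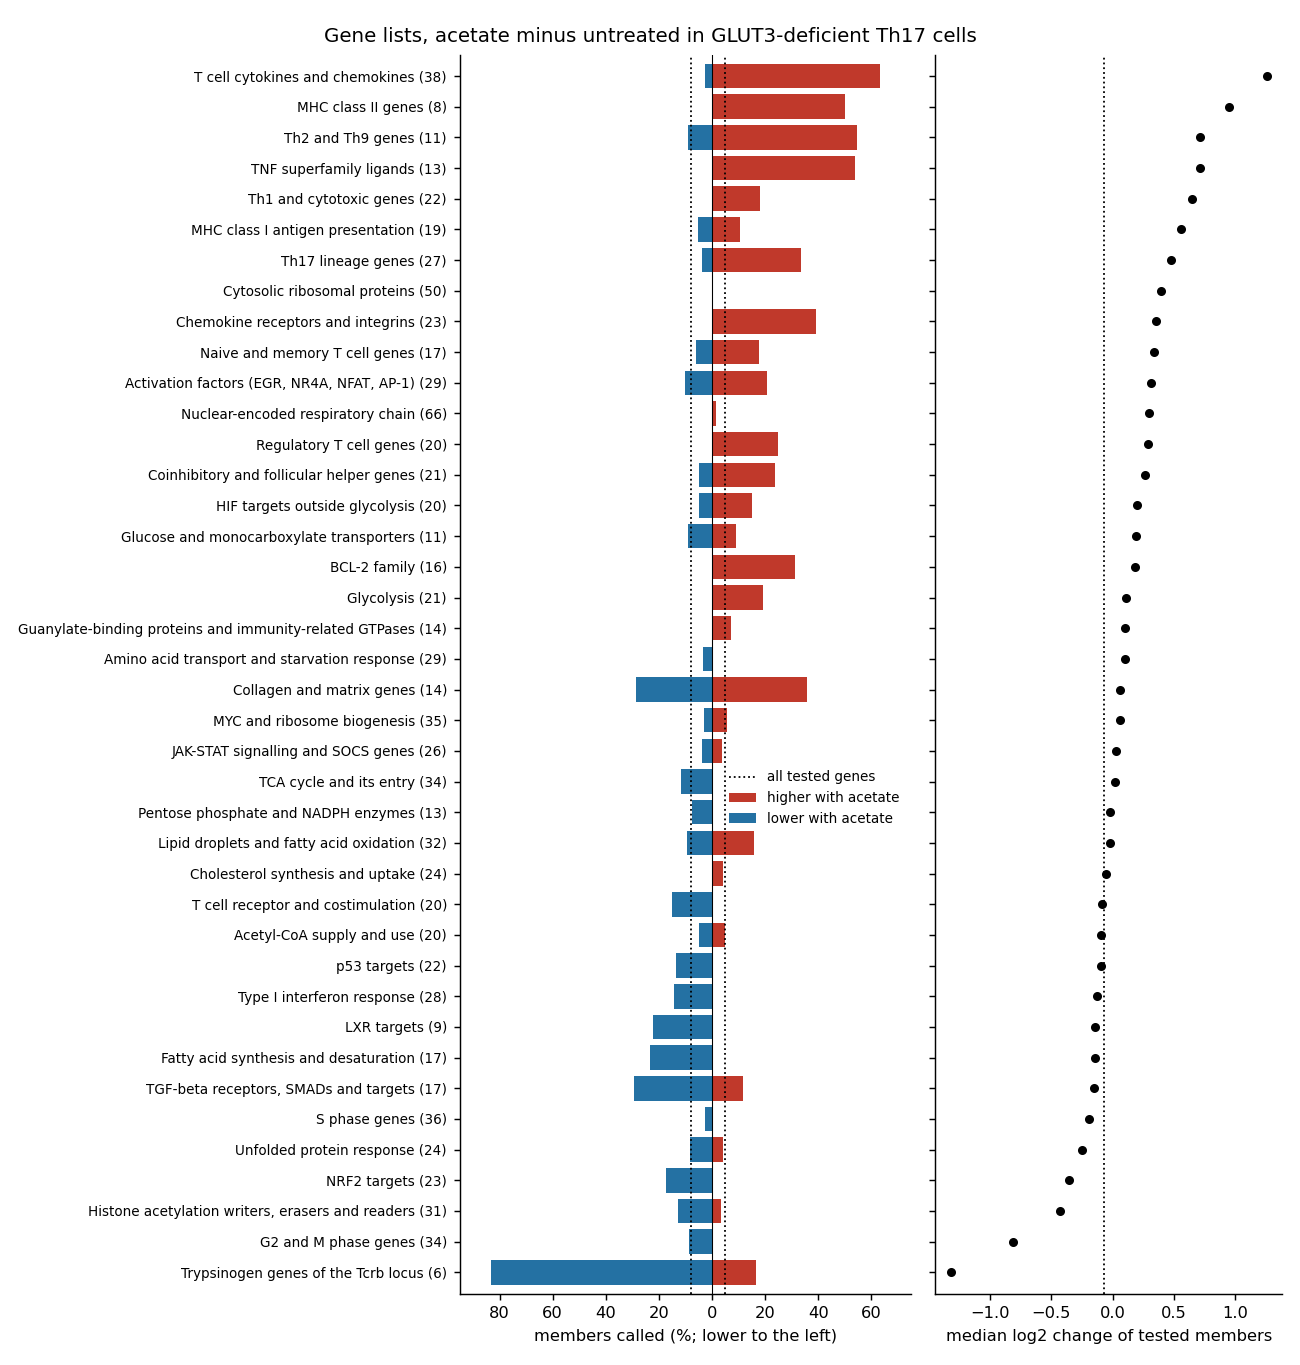
Left, share of the tested members of each gene list that were called higher (red, to the right) or lower (blue, to the left) with acetate in GLUT3KO cells, with the number tested in brackets and dotted lines at 4.86% higher and 7.89% lower, the shares over all tested genes; right, median log2 change of the tested members, with a dotted line at the median of all tested genes (-0.07). Cytokines and chemokines (24 of 38 higher) stand at the top, and trypsinogen genes (5 of 6 lower) at the bottom.

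Of 20 genes of acetyl-CoA supply and use 1 was higher (5.0%) and 1 lower (5.0%), near the shares of 4.86% and 7.89% over all tested genes. Acss2 had 2.48, 2.94 and 3.40 TPM in GLUT3KO cells with acetate, against 3.76, 4.54 and 6.59 TPM in untreated GLUT3KO cells. It was lower in every acetate library but short of the threshold, at -0.58 ± 0.19 (SE, adjusted p = 0.0620). Median-ratio scaling, quantile normalization, the GC and length correction and the fit without untreated replicate 1 called it. So did the axis covariate and the fit without ACLYKO replicate 1, which alter only the estimate of the spread. Acss1 had 0.645, 0.932 and 1.26 TPM with acetate and 0.748, 1.04 and 1.08 TPM without, with overlapping groups and a change of -0.02 (adjusted p = 0.952). Acly had 1084, 830.4 and 644 TPM with acetate and 725, 604 and 709 TPM without, also overlapping. The member that rose was the thioesterase gene Acot7 (0.55 log2 units), and the one that fell was the mitochondrial thiolase gene Acat1 (-0.62). The call ended for Acot7 without acetate replicates 2 or 3 or untreated replicates 1 or 2 and under the replicate block, and for Acat1 without acetate replicates 1 or 2 or untreated replicates 1 or 3 and under the replicate block. Under the block 0 of the 20 passed in either direction, and without ACLYKO replicate 1 the counts were 4 higher and 4 lower.

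Glucose handling shifted at a few steps. Slc2a1, the gene of GLUT1, had 175, 143 and 153 TPM with acetate and 118, 117 and 107 TPM without. The groups did not overlap, yet the change of 0.45 ± 0.27 (SE, adjusted p = 0.283) missed the threshold. The fits of only the groups compared, with the axis covariate and without ACLYKO replicate 1 called it. They alter only the estimate of the spread and are no check on the change. The lactate exporter gene Slc16a3 had 61.5, 44.8 and 59.5 TPM with acetate and 11.9, 15.7 and 17.96 TPM without. Its change was 1.80 ± 0.54 (SE, adjusted p = 0.0422). The aromatic amino acid transporter gene Slc16a10 had 30.9, 33.9 and 32.04 TPM with acetate and 66.3, 92.2 and 69.0 TPM without, and its change was -1.19 ± 0.13 (SE, adjusted p = 5.82e-05). Of 21 glycolysis genes 4 were higher and 0 lower (7 higher and 1 lower without ACLYKO replicate 1). Tpi1, triose phosphate isomerase, had 752, 666 and 714 TPM with acetate and 278, 305 and 334 TPM without. Ldha, lactate dehydrogenase A, had 313, 293 and 328 TPM with acetate and 166, 177 and 201 TPM without. The others, Pgam1 (phosphoglycerate mutase) and Eno3 (an enolase), rose by 0.88 and 0.84 log2 units. The median of the list was 0.11. Significance was lost for Slc16a3 without any 1 of the 6 libraries, with a pseudocount of 0.1 and without a filter on low values, and for Ldha without untreated replicate 1. The threshold was missed for Pgam1 without acetate replicates 1, 2 or 3 or untreated replicates 1 or 3, and for Eno3 without acetate replicates 2 or 3 or untreated replicate 1. The gene that passed in every alternative was Slc16a10.

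Of 34 genes of the TCA cycle and its entry 0 were higher and 4 lower (4 higher and 7 lower without ACLYKO replicate 1). The shares over all tested genes were 4.86% higher and 7.89% lower. After median-ratio scaling 2 of the 34 were higher and 2 lower. The 4 that fell in the main fit were Pdk2, Pdk3, Pdp1 and Pcx. Pdk2 encodes a kinase that switches off pyruvate dehydrogenase, and it had 2.13, 2.7 and 2.85 TPM in GLUT3KO cells with acetate, against 8.34, 5.93 and 7.07 TPM in untreated GLUT3KO cells. No library overlapped, and the change was -1.18 ± 0.17 (SE, adjusted p = 0.000404). Pdk3, another kinase of the same family, had 33.2, 35.6 and 34.5 TPM with acetate and 62.8, 52.0 and 56.9 TPM without. The phosphatase gene Pdp1, with the opposite action, fell by 0.61, and Pcx, pyruvate carboxylase, by 0.99 log2 units. No call remained for Pdk3 after median-ratio scaling and with voom, and for Pdp1 without acetate replicates 2 or 3 or untreated replicate 1, after median-ratio scaling, after quantile normalization, when only the groups compared were fitted, with voom and after the GC and length correction. The call ended for Pcx without any 1 of the 6 libraries and under the replicate block. Nuclear genes of the respiratory chain had 1 of 66 higher and 0 lower (2 higher and 1 lower under the block, 4 higher and 3 lower without ACLYKO replicate 1), with a median of 0.30, and the median turned to -0.13 when untreated replicate 2 stood alone.

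Lipid genes gave a mixed picture. Plin2, which coats lipid droplets, had 158, 151 and 147 TPM in GLUT3KO cells with acetate, against 50.3, 59.1 and 41.4 TPM in untreated GLUT3KO cells. All acetate libraries lay well above all untreated ones, with a change of 1.59 ± 0.21 (SE, adjusted p = 0.000199). Abca1, the cholesterol exporter and a target of the sterol receptor LXR, had 7.61, 8.22 and 9.42 TPM with acetate and 32.02, 31.1 and 37.2 TPM without. Mylip, another LXR target, which degrades the LDL receptor, had 2.80, 3.99 and 4.12 TPM with acetate and 10.9, 10.00 and 13.3 TPM without. Abca1 changed by -1.87 ± 0.15 (SE, adjusted p = 2.71e-06) and Mylip by -1.42 ± 0.18 (SE, adjusted p = 0.000142), and they were the 2 of 9 LXR targets that were lower, with 0 higher. Of 17 fatty acid synthesis and desaturation genes 0 were higher and 4 lower, among them Acsl5, an acyl-CoA synthetase gene, with 177, 204 and 196 TPM with acetate and 349.8, 355 and 428 TPM without, and the desaturase gene Fads1, with 2.10, 2.87 and 3.56 TPM with acetate and 7.70, 8.11 and 8.47 TPM without. Of 24 cholesterol synthesis and uptake genes 1 was higher and 0 were lower (1 higher and 2 lower under the block, 1 higher and 4 lower without ACLYKO replicate 1). Of 32 genes of lipid droplets and fatty acid oxidation 5 were higher and 3 lower. Cpt1a, the gate of mitochondrial fatty acid oxidation, had 21.7 ± 1.19 TPM with acetate and 11.0 ± 2.27 TPM without (SD, n = 3 each). Significance was lost for Cpt1a without any 1 of the 6 libraries. Called in every alternative that tested them were Plin2, Abca1, Mylip and Acsl5.

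Antioxidant genes went both ways. Of 15 tested glutathione S-transferase genes 5 were higher and 0 lower, a family looked at after its values were seen. Gstt1, a theta class glutathione S-transferase gene, had 109, 115 and 112 TPM in GLUT3KO cells with acetate, against 11.1, 18.2 and 12.3 TPM in untreated GLUT3KO cells. The gap was wide, and the change was 2.95 ± 0.31 (SE, adjusted p = 3.51e-05). Its neighbours on chromosome 10, Gstt3 and Gstt2, had 27.4 ± 1.89 TPM with acetate and 5.22 ± 2.59 TPM without for Gstt3 and 75.5 ± 3.78 TPM with acetate and 25.2 ± 8.60 TPM without for Gstt2 (SD, n = 3 each), and they were named after their values were seen. Gstt1 and Gstt3 shared no stretch of 75 bases. Targets of the oxidant sensor NRF2 had 0 of 23 higher and 4 lower, with a median of -0.36 (4 higher and 11 lower without ACLYKO replicate 1). Nqo1, a quinone reductase gene, had 4.32, 3.69 and 4.06 TPM with acetate and 14.2, 24.96 and 20.1 TPM without. Gclc, the catalytic subunit of the first enzyme of glutathione synthesis, had 10.9, 10.1 and 10.3 TPM with acetate and 39.2, 27.8 and 34.3 TPM without. The groups did not overlap in either gene, and the changes were -2.02 ± 0.43 (SE, adjusted p = 0.00676) for Nqo1 and -1.59 ± 0.24 (SE, adjusted p = 0.000683) for Gclc. Gsr, glutathione reductase, and Sod1, superoxide dismutase, fell by 0.66 and 0.50 log2 units. The threshold was missed for Gstt2 without acetate replicates 1, 2 or 3 or untreated replicates 1 or 3, and for Gsr without any 1 of the 6 libraries, with a pseudocount of 0.1, without a filter on low values, with a minimum of 5 TPM and under the replicate block. No call remained for Sod1 without acetate replicate 1, after median-ratio scaling and with voom. Every alternative that tested it called Gstt1.

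The genes of enzymes that add or remove histone acetyl groups, and of proteins that bind them, had 1 of 31 higher and 4 lower, with a median of -0.43. Under median-ratio scaling 2 were higher and 1 lower, under the replicate block 1 higher and 9 lower, and without ACLYKO replicate 1 3 higher and 16 lower. Sirt1, a deacetylase gene, had 27.7, 27.0 and 25.2 TPM with acetate and 38.9, 48.0 and 42.9 TPM without, and its change was -0.68 ± 0.13 (SE, adjusted p = 0.00280). The acetyltransferase gene Ep300, the deacetylase gene Hdac2 and the reader gene Brd2 fell by 0.89, 0.76 and 0.75 log2 units. Ep300 had 34.5, 30.9 and 28.3 TPM with acetate and 74.3, 44.0 and 61.4 TPM without, with untreated replicate 2 the nearest to the acetate libraries. The call ended for Sirt1 after the GC and length correction, and for Ep300 without acetate replicates 1, 2 or 3 or untreated replicates 1 or 3, without a filter on low values, after median-ratio scaling, after quantile normalization and with voom. Significance was lost for Hdac2 without acetate replicates 1, 2 or 3 or untreated replicates 1 or 3, with a pseudocount of 0.1, without a filter on low values, with a minimum of 5 TPM, after median-ratio scaling and with voom, and for Brd2 without acetate replicates 1, 2 or 3 or untreated replicates 1 or 3, without a filter on low values, after median-ratio scaling, with voom and after the GC and length correction.

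Of 28 type I interferon response genes 0 were higher and 4 lower (4 higher and 5 lower under the block, 3 higher and 8 lower without ACLYKO replicate 1). Irf1, an interferon regulatory factor, had 14.7, 18.5 and 19.9 TPM in GLUT3KO cells with acetate, against 55.5, 43.0 and 49.1 TPM in untreated GLUT3KO cells, with no overlap and a change of -1.43 ± 0.29 (SE, adjusted p = 0.00494). Ifit1, a sensor of viral RNA, was near the floor, at 0.0627, 0.0820 and 0.126 TPM with acetate and 0.793, 0.948 and 1.09 TPM without. Zbp1, a sensor of nucleic acids and cell death, had 14.5, 22.1 and 21.6 TPM with acetate and 29.8, 35.1 and 30.5 TPM without. Ifi209, of the DNA-binding p200 family, had 5.16, 5.94 and 6.33 TPM with acetate and 40.9, 37.2 and 37.8 TPM without. Ifi214, of the same family, had 0.895, 1.34 and 1.2 TPM with acetate and 12.6, 4.55 and 9.11 TPM without. They fell to a fraction of the untreated level, with changes of -2.54 ± 0.25 (SE, adjusted p = 2.35e-05) for Ifi209 and -2.10 ± 0.32 (SE, adjusted p = 0.000740) for Ifi214, but 23.1% of the 75-base stretches of Ifi209 also occur in Ifi214, so that reads can be split between them. Across the p200 family 1 of 9 tested genes was higher and 3 were lower, a family looked at after its values were seen. The genes that passed in every alternative that tested them were Ifit1 and Ifi209.

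MHC class II genes, whose products present peptides to CD4+ T cells, had 4 of 8 higher and 0 lower, with a median of 0.95. H2-Oa, a subunit of the modulator of peptide loading, had 18.9, 21.8 and 21.9 TPM in GLUT3KO cells with acetate, against 3.23, 3.15 and 2.60 TPM in untreated GLUT3KO cells, with no overlap and a change of 2.45 ± 0.50 (SE, adjusted p = 0.00484). The class II alpha chain gene H2-Aa had 1.47, 2.11 and 4.41 TPM with acetate and 0.177, 0.237 and 1.66 TPM without, with overlapping groups. B cell markers summed to 1.36 to 3.27 TPM with acetate and 0.591 to 1.01 TPM without for 6 genes, of which Ms4a1, Pax5 and Cd22 stayed at or under 0.142 TPM. Dendritic cell markers summed to 1.73 to 2.00 TPM with acetate and 1.34 to 2.05 TPM without for 7 genes, 3 of which were at 0 in all 6 libraries. Their part in the result was not tested. When untreated replicate 2 stood alone, 0 of the 8 class II genes passed. The threshold was missed for H2-Aa without acetate replicates 2 or 3 or untreated replicates 1 or 2, without a filter on low values, when only the groups compared were fitted and after the GC and length correction.

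The 34 genes of G2 and M phase had a median of -0.81, and 3 were lower and 0 higher. The count of lower genes was near the share of 7.89% over all tested genes. Gtse1, a spindle and p53 regulator, had 12.5, 17.4 and 17.5 TPM with acetate and 35.1, 39.3 and 43.0 TPM without, a change of -1.27 ± 0.20 (SE, adjusted p = 0.000793). Cdc25b, the phosphatase that starts mitosis, had 6.12, 13.1 and 17.0 TPM with acetate and 23.6, 30.4 and 26.9 TPM without. Its groups were apart, and acetate replicate 1 was the lowest. The 50 ribosomal protein genes had 0 calls in limma in either direction (2 at an unadjusted p under 0.05) and a median of 0.40, which was -0.03 when untreated replicate 2 stood alone. Of 22 p53 targets 3 were lower (5 without ACLYKO replicate 1), among them Ccng1 with 301, 287 and 255 TPM with acetate and 491, 468 and 454 TPM without. In the BCL-2 family 5 of 16 were higher and 0 lower (3 higher and 0 lower under the block). Bid, which relays death receptor signals, had 9.68, 12.9 and 14.2 TPM with acetate and 5.54, 6.28 and 6.57 TPM without and changed by 0.88 ± 0.18 (SE, adjusted p = 0.00584). Bcl2a1a and Bcl2a1d also passed, but 53.8% of the 75-base stretches of Bcl2a1a also occur in Bcl2a1d, so their reads may be shared. Of 24 unfolded protein response genes 1 was higher and 2 were lower (2 higher and 3 lower without ACLYKO replicate 1). The main counts were near the shares of 4.86% higher and 7.89% lower over all tested genes. Among the lower genes was Derl3, a channel component of protein disposal, with 1.42, 1.13 and 0.659 TPM with acetate and 5.41, 6.51 and 4.81 TPM without. No call remained for Cdc25b without acetate replicates 1 or 2 or untreated replicates 1, 2 or 3, without a filter on low values and when only the groups compared were fitted, and for Ccng1 after the GC and length correction. Called in every alternative that tested them were Gtse1 and Derl3.

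Trypsinogen genes, which lie inside the T cell receptor beta locus on chromosome 6, had the largest falls of the comparison. Try4, at chr6:41302272-41305533, had 2.07, 1.76 and 1.80 TPM in GLUT3KO cells with acetate, against 55.2, 45.0 and 56.8 TPM in untreated GLUT3KO cells. Try5, at chr6:41311232-41314710, had 3.93, 4.59 and 4.01 TPM with acetate and 65.0, 115 and 74.5 TPM without. In both genes the acetate libraries held a small fraction of the untreated level, and the changes were -4.21 ± 0.20 (SE, adjusted p = 2.69e-08) for Try4 and -4.01 ± 0.24 (SE, adjusted p = 3.81e-07) for Try5. Gm2663, 1810009J06Rik and Gm5771, of the same cluster, fell by 0.95, 1.25 and 1.39 log2 units, and Prss2, which lies apart from them towards the constant regions, was higher, at 1.3, 2.62 and 2.01 TPM with acetate and 0.241, 1.19 and 0.870 TPM without. The call ended for Prss2 without acetate replicates 2 or 3 or untreated replicate 1, with a pseudocount of 0.1, when only the groups compared were fitted and after the GC and length correction. Every alternative that tested them called Try4, Try5, Gm2663, 1810009J06Rik and Gm5771. Of the 75-base stretches of Try4 34.5% also occur in Try5, and of those of Gm2663 76.6% also occur in 1810009J06Rik, so their reads may be shared. All 6 markers of pancreatic acinar cells, such as Cpa1, Pnlip and Cel, were at 0 in all 6 libraries. Of 42 tested beta chain segments and constant regions 7 were lower and 0 higher, among them Trbv3 and Trbv19, a group looked at after its values were seen.

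**Figure D4:**
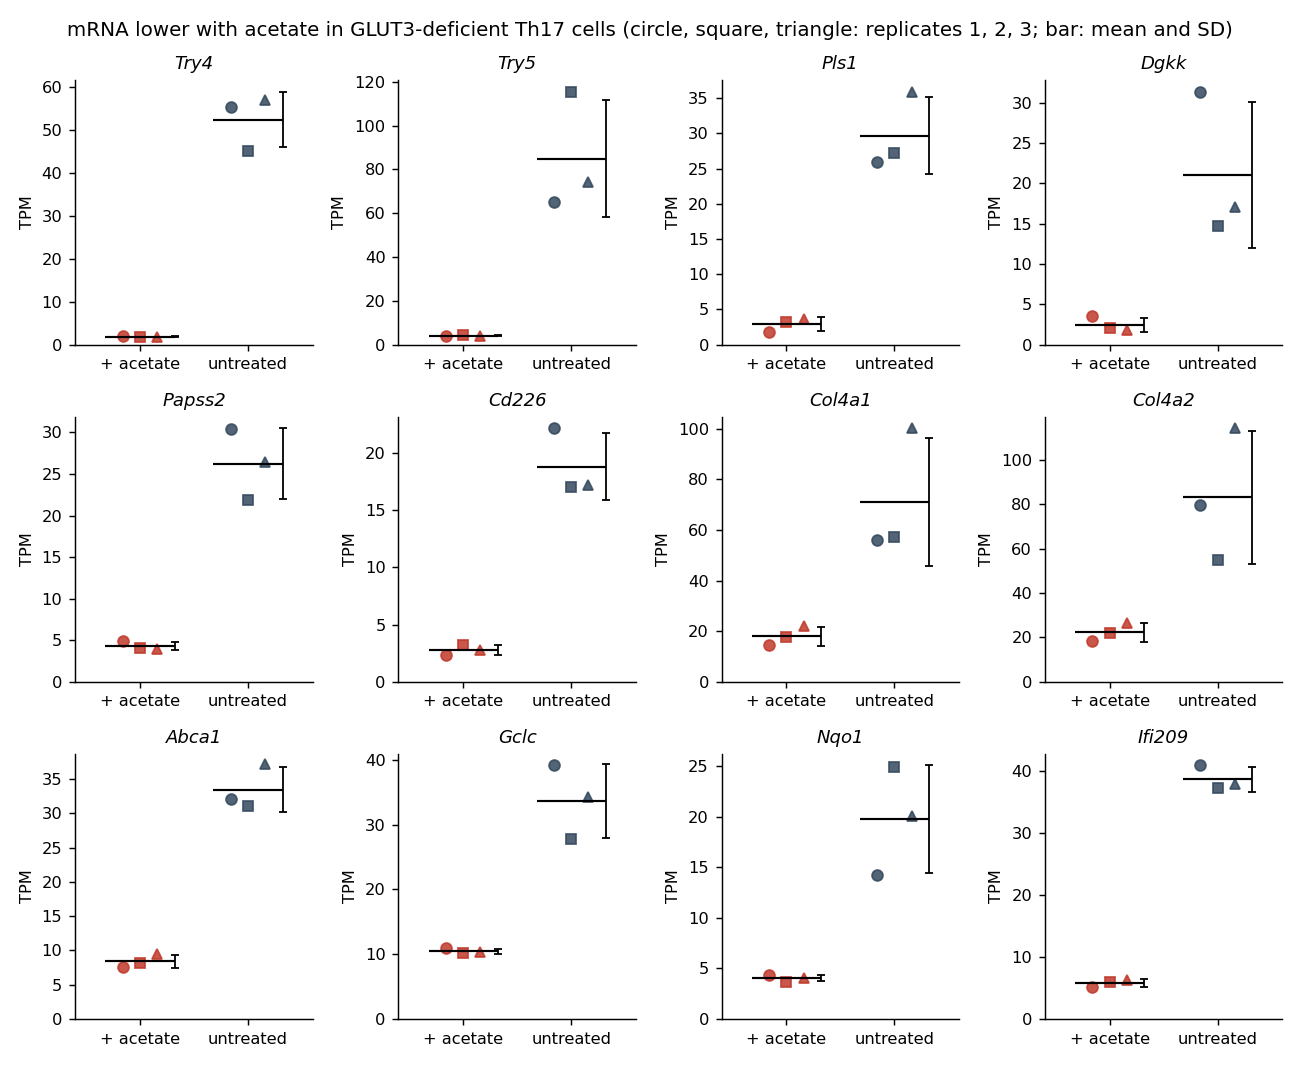
TPM of 12 genes that fell, with acetate on the left (red) and untreated on the right (dark), circles, squares and triangles for replicates 1, 2 and 3, and bars for the mean and SD; each axis starts at 0. In all 12 panels the 3 acetate libraries lie under the 3 untreated ones, with the largest log2 falls for Try4 and Try5.

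Other large falls had no list in common. Pls1, which bundles actin, had 1.77, 3.16 and 3.69 TPM in GLUT3KO cells with acetate, against 25.9, 27.2 and 35.9 TPM in untreated GLUT3KO cells. Dgkk, which phosphorylates the second messenger diacylglycerol, had 3.49, 2.05 and 1.87 TPM with acetate and 31.3, 14.7 and 17.0 TPM without. Papss2, which makes the sulfate donor PAPS, had 4.89, 4.08 and 4.003 TPM with acetate and 30.4, 21.9 and 26.5 TPM without. The groups were separate in all of them, but the rule that named them required this. The changes of -3.01 ± 0.20 (SE, adjusted p = 8.77e-07) for Pls1, -2.62 ± 0.22 (SE, adjusted p = 5.24e-06) for Dgkk and -2.35 ± 0.17 (SE, adjusted p = 1.27e-06) for Papss2 stood beside those of the purine receptor gene P2ry1 (-2.45), the ganglioside synthase gene St3gal5 (-2.34), the centrosome gene Ninl (-2.33) and the glycosylation gene Galnt3 (-2.05). Tbc1d4, a regulator of glucose transporter traffic, had 2.88, 3.97 and 3.81 TPM with acetate and 16.4, 16.4 and 21.0 TPM without, and the cytochrome oxidase subunit gene Cox6a2 had 0.879, 0.656 and 1.18 TPM with acetate and 6.95, 6.91 and 8.29 TPM without. The genes that passed in every alternative that tested them were Pls1, Dgkk, Papss2, P2ry1, St3gal5, Ninl and Galnt3.

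Among the other large rises were genes of the cytoskeleton and cell surface. Pdlim4, an actin-binding scaffold, had 17.5, 19.5 and 15.01 TPM in GLUT3KO cells with acetate, against 0.318, 1.14 and 0.803 TPM in untreated GLUT3KO cells. Rhoc, a small GTPase that shapes actin, had 284, 309 and 293 TPM with acetate and 33.8, 47.5 and 47.1 TPM without. Ccn1, a secreted matrix protein, had 52.0, 65.4 and 63.2 TPM with acetate and 5.99, 5.59 and 6.73 TPM without. No group overlapped another in these genes, but the rule that named them required this. The log2 changes were 3.41 ± 0.28 (SE, adjusted p = 4.41e-06) for Pdlim4, 2.77 ± 0.23 (SE, adjusted p = 5.24e-06) for Rhoc and 3.10 ± 0.22 (SE, adjusted p = 8.87e-07) for Ccn1. Myadm, a membrane protein gene, changed by 2.47 ± 0.22 (SE, adjusted p = 6.25e-06), and Il1a, which encodes the alarm cytokine IL-1 alpha, had 166, 104 and 104 TPM with acetate and 28.5, 16.2 and 19.3 TPM without, a change of 2.49 ± 0.35 (SE, adjusted p = 0.000397). The small RNA genes Mir1668 and Snord35a also stood among the largest rises, but they lie inside the longer genes Adgre5 and Rpl13a, whose reads cannot be told from theirs. Untreated replicate 1 held 0 reads of each, and untreated replicate 2 held 10.0 TPM of Mir1668 and 12.0 TPM of Snord35a. Significance was lost for Mir1668 without acetate replicates 1, 2 or 3 or untreated replicates 1 or 3, with a pseudocount of 0.1, without a filter on low values and when only the groups compared were fitted, and for Snord35a without acetate replicates 1, 2 or 3 or untreated replicates 1 or 3 and when only the groups compared were fitted.

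The same 24 hours of acetate were compared with those in WT cells, which share no library with the GLUT3KO groups. In WT 925 genes were called (6.5%), 601 higher (4.22%) and 324 lower (2.28%). The lists shared 531 genes, 29.3% of the GLUT3KO list and 57.4% of the WT list, and 523 of them had the same sign. Both depended on the fit. WT had 1592 calls (910 higher, 682 lower) after the GC and length correction, 1462 with only the groups compared, 2372 without ACLYKO replicate 1 and 4068 with the axis covariate. The shared genes numbered 957 after the GC and length correction, 707 with only the groups compared, 1543 without ACLYKO replicate 1 and 136 with untreated GLUT3KO replicate 2 alone. Across all tested genes the log2 changes correlated by 0.723 (Pearson, a description over genes, which are not independent replicates). A test of the difference between the 2 changes called 110 genes (0.773%), 32 with a higher (0.225%) and 78 with a lower (0.548%) change in GLUT3KO cells. With the replicate block 32 passed (14 and 18), and without untreated GLUT3KO replicates 1 and 3 together 26. Without acetate replicates 1, 2 and 3 of GLUT3KO the count was 63, 59 and 67, and without untreated replicates 1 and 3 it was 70 and 60. Without ACLYKO replicate 1 it was 285 (74 and 211).

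**Figure D5:**
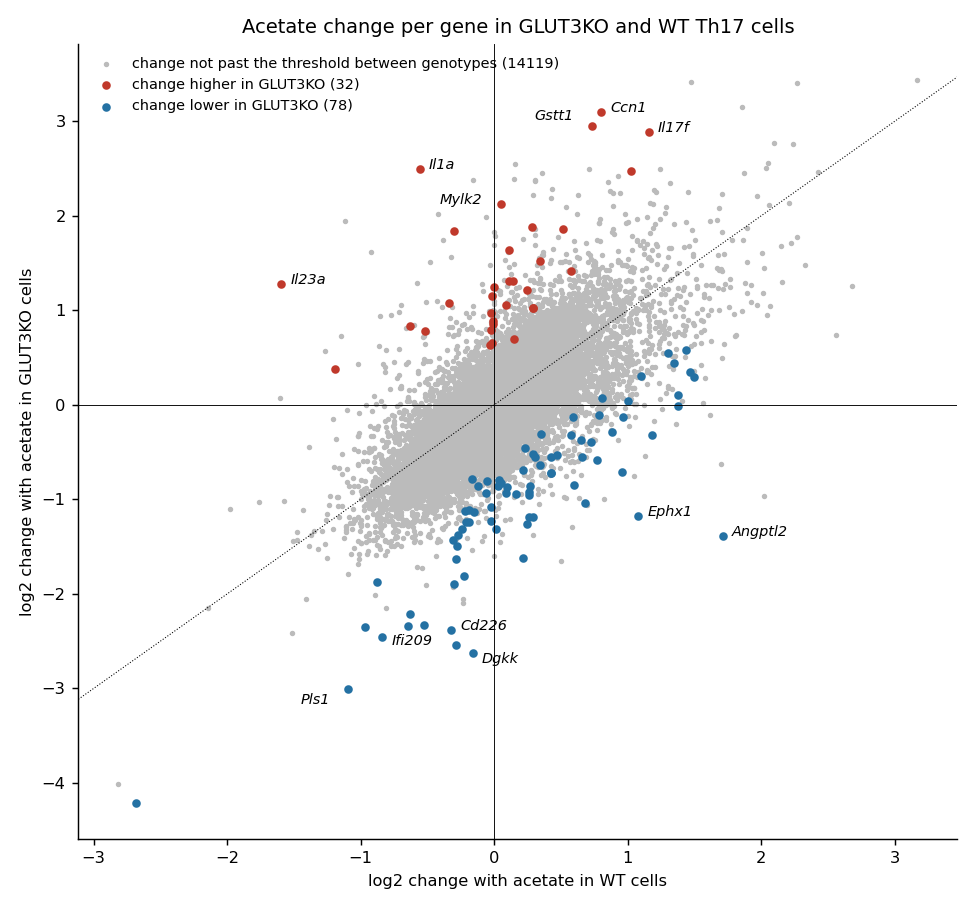
Log2 change with acetate of each tested gene in GLUT3KO cells (vertical) against that in WT cells (horizontal); the dotted diagonal marks equal change. Red points (32) changed more upwards and blue points (78) more downwards in GLUT3KO cells at an adjusted p under 0.05 for the difference, among them Il17f and Ccn1 above the diagonal and Cd226 and Angptl2 below it.

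Il17f was one of these genes. In GLUT3KO cells it averaged 789 ± 91.4 TPM with acetate and 105 ± 0.688 TPM without, and in WT cells 1701 ± 203 TPM with acetate and 762 ± 99.1 TPM without (SD, n = 3 each). The difference of the log2 changes was 1.73 ± 0.32 (SE, adjusted p = 0.0176). It rose in GLUT3KO and in WT cells, and WT cells with acetate still had the higher level. Il17a had 1792 ± 327 TPM with acetate and 638 ± 56.3 TPM without in WT cells, and its difference of 1.94 missed the threshold (adjusted p = 0.178), as did that of Il10, 0.26 (adjusted p = 1.000), and that of Il2, 1.25 (adjusted p = 0.373). Without ACLYKO replicate 1 the difference of Il17a passed (adjusted p = 0.00754), and its adjusted p ranged from 0.000768 to 1.000 over the alternatives. For Ccn1 the GLUT3KO means were 60.2 ± 7.17 TPM with acetate and 6.10 ± 0.579 TPM without and the WT means 7.04 ± 0.785 TPM with acetate and 3.63 ± 0.728 TPM without, with a difference of 2.30 ± 0.30 (SE, adjusted p = 0.00256). Mylk2, a myosin kinase gene, averaged 6.77 ± 0.864 TPM with acetate and 0.796 ± 0.329 TPM without in GLUT3KO cells and 0.103 ± 0.0916 TPM with acetate and 0.0605 ± 0.0397 TPM without in WT cells, with a difference of 2.07 ± 0.19 (SE, adjusted p = 0.000221). The call for Il17f was lost under the replicate block, voom on recovered reads, without acetate replicate 1 or 3 of GLUT3KO, without untreated replicate 3, and with untreated replicate 2 alone (highest adjusted p = 0.201). That for Mylk2 was lost with a pseudocount of 0.1 and with voom, and that for Ccn1 held in all 18 alternatives.

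Lower changes in GLUT3KO cells were most marked in Angptl2, a secreted glycoprotein gene, which fell in GLUT3KO cells and rose in WT cells. It averaged 30.7 ± 4.80 TPM with acetate and 81.8 ± 12.7 TPM without in GLUT3KO cells and 22.3 ± 6.04 TPM with acetate and 6.16 ± 2.16 TPM without in WT cells, with a difference of -3.10 ± 0.38 (SE, adjusted p = 0.00183). Cd226 averaged 11.0 ± 1.01 TPM with acetate and 14.03 ± 1.24 TPM without in WT cells, and its difference was -2.06 ± 0.24 (SE, adjusted p = 0.00143). Ephx1, an epoxide hydrolase gene, averaged 8.35 ± 0.291 TPM with acetate and 20.3 ± 3.56 TPM without in GLUT3KO cells and 26.5 ± 1.80 TPM with acetate and 12.1 ± 2.09 TPM without in WT cells, with a difference of -2.26 ± 0.35 (SE, adjusted p = 0.00875). Dgkk and Ifi209, both high in untreated GLUT3KO cells, were under 1 TPM on average in WT cells with and without acetate. The call for Ephx1 was lost under the replicate block and with untreated replicate 2 alone, and those for Angptl2 and Cd226 held in all 18 alternatives.

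In ACLYKO cells, which cannot turn citrate into cytosolic acetyl-CoA, acetate changed 2458 genes (17.3%), 1661 higher (11.7%) and 797 lower (5.6%). Only 424 passed (343 higher, 81 lower) when the ACLYKO groups were fitted alone, and 2937 (1599 higher, 1338 lower) without untreated ACLYKO replicate 1, the library that stood apart on the axis. The higher share of the calls was 67.6% as deposited, 56.6% after median-ratio scaling, 51.2% after quantile normalization and 51.9% after the GC and length correction. Of the 2458 genes 765 were shared with GLUT3KO cells, 42.2% of the GLUT3KO list and 31.1% of the ACLYKO list, with the same sign in 718 and the opposite sign in 47. They numbered 179 with only the groups compared and 1386 without ACLYKO replicate 1. The log2 changes correlated by 0.524 across genes. The difference of the changes was called for 693 genes (4.87%), 151 higher (1.06%) and 542 lower (3.81%) in GLUT3KO cells. After median-ratio scaling 41.6% of such calls were higher (288 higher, 404 lower), against 21.8% as deposited, and after the GC and length correction 393 were higher and 415 lower. The count was 448 and 452 without acetate replicates 1 and 2 of GLUT3KO and 431 without untreated GLUT3KO replicate 3, and it was 1344 (471 higher, 873 lower) without ACLYKO replicate 1, where the differences given next also passed. Il10 averaged 259 ± 57.2 TPM with acetate and 145 ± 20.2 TPM without in ACLYKO cells, with a difference of 2.62 ± 0.36 (SE, adjusted p = 0.000749). Il2, already high there, averaged 13639 ± 4959 TPM with acetate and 13289.7 ± 5778 TPM without, with a difference of 2.45 ± 0.45 (SE, adjusted p = 0.00535). Il17f averaged 315 ± 33.8 TPM with acetate and 289.8 ± 120.4 TPM without, and its difference was 2.69 ± 0.32 (SE, adjusted p = 0.000268). Acss1 rose in ACLYKO cells, where it averaged 2.47 ± 0.0793 TPM with acetate and 0.569 ± 0.0234 TPM without (adjusted p = 6.80e-05), and the difference was -1.16 ± 0.21 (SE, adjusted p = 0.00446). That difference for Acss1 was lost under quantile normalization and under the GC and length correction, and that for Il2 with untreated GLUT3KO replicate 2 alone.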

How the data were processed

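Stranded mRNA libraries were sequenced as single 75-base reads, per the labels' protocols, and RNA integrity numbers were above 7.8. The authors deposited 1 table of TPM values and combined exon lengths in bases per gene for 18 libraries, each column summing to 1000000. The submitters' processing notes name STAR 2.7.2b, cutadapt, featureCounts 1.6.4 of Subread, DESeq2 and bcl2fastq 2.20.0.422, with the build GRCm38.p6 and no roles or settings. Reads of near copies and of genes within genes could be split or lost in counting.

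Genes with at least 1 TPM in at least 3 of 18 libraries (14229) were fitted on log2(TPM + 1) in limma 3.58.1 (R 4.3.3; group means over 6 groups of 3, robust empirical Bayes with an intensity trend, Benjamini-Hochberg adjustment over all tested genes, threshold 0.05); the pseudocount of 1 understates changes of low genes. Every adjusted p of a gene is from this fit, except those given for alternatives. Whole reads were recovered from TPM and exon length (100% whole within 0.01 reads, for values below 500 reads), which gave 18697197 to 29221484 reads in the 6 libraries compared and fed voom as an alternative. Such values are a count model's input only there. GC content was known for 95.9% of tested genes.

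Same-numbered GLUT3KO libraries deviated together from their group means (correlations of 0.19, 0.15 and 0.17, and above 0.1 in the other genotypes), so the numbers may mark pairs. No correlations between unlike numbers are given beside these. The main fit, with all its counts and adjusted p-values, left such pairing out. A replicate block by genotype was an alternative, and under it the difference from WT was called for 32 genes, against 110. Other alternatives changed the pseudocount, filter, scaling or groups fitted, corrected for GC content and length, or left out libraries. Array weights were not used because they did not converge.

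The members and gene lists were chosen with earlier results of these data known. Named by rule were 15 genes of GLUT3, acetate use and Th17 function and up to 4 members of each list with the smallest adjusted p. Next came the 15 largest rises and 15 largest falls with a group mean of at least 5 TPM and no overlap. Last were 6 and 6 genes for each difference from WT and ACLYKO, by the same conditions except that overlap was allowed. Unnamed gene models, pseudogenes and receptor segments were left out of the last 2 steps. Other genes, among them Lif, Osm, Inhba, Gstt2, Gstt3 and Cd70, and gene families were chosen after their values were seen.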

Additional observations from a re-analysis of the deposited data

Results flagged for a closer look

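The acetate change differed between GLUT3KO and WT cells, by a test of the difference itself in limma, in 12 genes named by rule. The rule took only genes that passed this test. Apart from the fit with untreated replicate 2 alone, 4 of the 12 kept their call in every alternative. Changes were higher in GLUT3KO cells for Il1a by 3.05 ± 0.50 (SE, adjusted p = 0.0105), for Il23a, which encodes a subunit of IL-23, by 2.87 ± 0.54 (SE, adjusted p = 0.0232), for Ccn1 by 2.30, for Gstt1 by 2.22 (adjusted p = 0.0288), for Mylk2 by 2.07 and for Il17f by 1.73, all in log2 units. Il23a averaged 930.02 ± 123 TPM with acetate and 389.7 ± 95.5 TPM without in GLUT3KO cells and 49.0 ± 12.6 TPM with acetate and 175 ± 132 TPM without in WT cells (SD, n = 3 each). The differences were negative for Angptl2 (-3.10), Dgkk (-2.46), Ifi209 (-2.26), Ephx1 (-2.26), Cd226 (-2.06) and Pls1 (-1.91).

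Between GLUT3KO and ACLYKO cells the same test set 16 named genes apart. Of these, 12 were named by a rule that took only genes that passed this test. Apart from the fit with untreated replicate 2 alone, 9 of the 12 kept their call in every alternative. The interferon factor gene Irf7 averaged 0.779 ± 0.128 TPM with acetate and 0.427 ± 0.153 TPM without in GLUT3KO cells and 1.05 ± 0.483 TPM with acetate and 15.8 ± 5.73 TPM without in ACLYKO cells (SD, n = 3 each), a difference in change of 3.32 ± 0.31 (SE, adjusted p = 8.25e-05). The p200 genes Ifi203 and Mndal differed by 2.92 and 2.73, the cytokine genes Ccl20, Il17f, Il9, Il10 and Il2 by 3.11, 2.69, 2.63, 2.62 and 2.45. Il9 averaged 4.10 ± 0.747 TPM with acetate and 0.684 ± 0.256 TPM without in GLUT3KO cells and 61.9 ± 2.73 TPM with acetate and 132 ± 42.6 TPM without in ACLYKO cells. Differences were negative for Angptl2 (-3.55), Cd226 (-3.26), Serpinf1 (-3.13), Tff1 (-3.0), Pls1 (-2.7), Tgm2 (-2.7), Tbx21 (-1.61) and Acss1 (-1.16). Serpinf1, a secreted serpin gene, averaged 71.3 ± 13.5 TPM with acetate and 104 ± 18.1 TPM without in GLUT3KO cells and 18.3 ± 3.49 TPM with acetate and 2.27 ± 0.895 TPM without in ACLYKO cells. Tgm2, a transglutaminase gene, averaged 57.6 ± 4.52 TPM with acetate and 45.8 ± 8.40 TPM without in GLUT3KO cells and 49.9 ± 11.8 TPM with acetate and 5.64 ± 2.92 TPM without in ACLYKO cells.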

How the results depend on the processing

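For acetate in GLUT3KO cells, 1813 genes were called, and the count was 541 with a minimum log2 change of 1, 286 without untreated replicates 1 and 3 and 6511 with the axis score as a covariate, an alternative chosen after seeing the data. Leaving out 1 library gave 960 to 4152, the highest without untreated ACLYKO replicate 1, another alternative chosen after seeing the data. The other settings stayed within 1.5 times. The replicate block gave 2045 (834 higher, 1211 lower).

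For the difference from WT (110), the count was 21 with a pseudocount of 0.1, 171 without a filter, 55 with a minimum of 5 TPM, 66 after quantile normalization, 192 with only the groups compared, 32 under the replicate block, 36 with voom, 26 without untreated replicates 1 and 3, 745 with the axis covariate, 69 with a minimum log2 change of 1 and 59 to 285 without 1 library. For the difference from ACLYKO (693), it was 391 with a minimum of 5 TPM, 292 with only the groups compared, 187 without untreated replicates 1 and 3, 2922 with the axis covariate, 461 with a minimum log2 change of 1 and 431 to 1344 without 1 library, and 547 under the replicate block. The causes were not tested, except that fewer genes or samples entered where genes or libraries were left out. The libraries left out in these counts were those of GLUT3KO and ACLYKO replicate 1, which gave the highest count each time.

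None of the 145 called genes named by rule changed the sign of the acetate change in GLUT3KO cells in any alternative. The same held for the 12 and 12 genes named for the differences from WT and ACLYKO. Named genes that were not called were not counted. The replicate block, the axis covariate, the fit of only the groups compared and the one without ACLYKO replicate 1 could not alter the log2 change in GLUT3KO cells. Leaving out GLUT3KO libraries could not turn its sign where the groups did not overlap. Median-ratio scaling and voom each moved the median log2 change of all genes to 0.03, and the GC and length correction to -0.01. Counting noise limits genes near 1 TPM.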

Other observations

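Several genes that changed lie next to each other. From Il4 to Il3 on chromosome 11 (GRCm38.p6, chr11:53612460-54267279), 10 genes were tested over 655 kb. Il4, Il13, Il5, Pdlim4, Csf2 and Il3 were higher with acetate, and Irf1, which lies between Il5 and Pdlim4, was lower. Rad50, Slc22a5 and P4ha2 in the same stretch did not pass. Il17a and Il17f (54.4 kb on chromosome 1), Il24 and Il10 (143 kb on chromosome 1) and Osm and Lif (35.7 kb on chromosome 11) were pairs with no other tested gene between them, and both members were higher. Il2 and Il21 were the 2 called genes of 5 tested over 112 kb on chromosome 3, and Il22, its copy Iltifb and Ifng the 3 of 13 over 241 kb on chromosome 10. Gstt3, Gstt1 and Gstt2 were higher and their neighbour Gstt4 did not pass, over 63.3 kb on chromosome 10. Col4a1 and Col4a2 (251 kb on chromosome 8) and Try4 and Try5 (12.4 kb on chromosome 6) fell as pairs. These stretches were chosen after the values were seen, and whether neighbours move together beyond other genes was not tested.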
